A study of Mus musculus with 6 samples.

Results

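The Hsp70 and Hsp90 chaperone set comprised 10 mouse genes: Hspa1a, Hspa1b, Hspa1l, Hspa8, Hspa9, Hsph1, Hsp90aa1, Hsp90ab1, the J-domain cochaperone Dnajb1 and the heat shock factor Hsf1. Members were found by symbol among the non-control probes of 6 one-colour Agilent arrays. Of these 10 genes, 9 had a matched probe, with 12 probes in all, among 20907 genes tested. Hspa1b had no matched probe and was not analysed here. The arrays carried Cy3-labelled RNA of gastrocnemius, a calf muscle, from male mice. Old animals were 25 months of age (3 samples) and young animals 13 weeks (3 samples). The labels gave neither strain nor genotype and did not state that each sample came from a separate animal, so p-values rest on the variation among these samples, part or all of which could be technical.

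Hsp70 proteins bind and release exposed stretches of unfolded proteins in a cycle of ATP hydrolysis and nucleotide exchange. J-domain proteins such as Dnajb1 deliver clients and speed hydrolysis, Hsp110 proteins such as Hsph1 exchange the nucleotide, and Hsp90 completes the folding of many kinases and receptors. Heat, oxidative damage and muscle contraction activate Hsf1, which binds heat shock elements before the inducible genes, while the constitutive members are transcribed in unstressed tissue.

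No member passed an adjusted p under 0.05, and the values of the inducible members spread widely within old muscle. The stress-inducible Hsp70 gene Hspa1a was higher in all 3 old samples than in all 3 young samples, by 5.02-fold on average, with an adjusted p of 0.196 from limma. Hsp90aa1, the inducible cytosolic Hsp90, was far higher in 2 old samples and lower in the other. The constitutive genes Hspa8, Hspa9 and Hsp90ab1 and the regulator Hsf1 differed between ages by -0.21 to 0.24 on the log2 scale. Here Hspa8 was read from its probe with the highest mean, and its other probes gave 0.66 and -0.01. The remaining constitutive gene, Hspa1l, differed by 0.66, which was more than the inducible genes Hsph1 (0.38) and Dnajb1 (-0.10). Across all genes, limma with Benjamini-Hochberg adjustment called 53 genes, which is 0.254%, and 0 of the 9 measured members. At an unadjusted p under 0.05 the count was 1 member, Hspa1a, against 14.4% of all genes. Old values lay wholly above young values for 1 member (7.92% of all genes) and wholly below them for 0 members (13.9% of all genes).

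All values below are log2 signals relative to the 75th percentile of the same array, so 0 is that percentile, and differences are old minus young. Every member probe was well above background on all 6 arrays and none was saturated. Between 49.9% and 54.8% of gene spots per array were well above background. Old replicate 1 stood apart in 2 quality measures: its negative controls averaged 61.3, against 51.9 to 55.1 on the other arrays, and its spike-in slope was 0.840, against 0.925 to 0.941. It correlated at 0.976 with each of the other old arrays and at 0.969 to 0.982 with the young arrays over all genes. All arrays came from 1 slide, with old replicates 2 and 3 in its second row and the other 4 arrays in its first. A fit with slide row as a block therefore compares old replicate 1 with the young samples, and its values stand beside the differences below. Without old replicate 1, all old samples lie in the second row and all young samples in the first. Age and row cannot be told apart in that fit.

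Upstream sequences are shown for the members whose expression the account turns on and for which RefSeq gave an entry (GRCm38.p6), which was the case for 5 of the 10 genes. Each run is the 250 bases before the transcription start, read 5′ to 3′ on the gene's strand, with capitals marking a match to GAANNTTC or TTCNNGAA, the paired core units of the heat shock element. Both motifs read the same on either strand. GAANNTTC occurred in 6.69% of 32851 such windows, TTCNNGAA in 7.17% and either of them in 12.8%. Hspa1a lies on the minus strand (chr17:34972157-34972406), Hspa1l on the plus strand (chr17:34972453-34972702) and Hsph1 on the minus strand (chr5:149636337-149636586).
Hspa1a: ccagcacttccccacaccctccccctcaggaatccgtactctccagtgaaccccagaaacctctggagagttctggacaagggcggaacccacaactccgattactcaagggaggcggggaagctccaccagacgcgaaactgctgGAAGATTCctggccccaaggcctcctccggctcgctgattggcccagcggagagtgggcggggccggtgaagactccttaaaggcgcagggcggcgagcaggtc
Hspa1l: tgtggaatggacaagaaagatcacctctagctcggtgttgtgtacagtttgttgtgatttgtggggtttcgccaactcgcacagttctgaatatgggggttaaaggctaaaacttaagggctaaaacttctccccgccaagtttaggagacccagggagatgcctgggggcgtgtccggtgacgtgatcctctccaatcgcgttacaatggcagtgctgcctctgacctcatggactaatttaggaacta
Hsph1: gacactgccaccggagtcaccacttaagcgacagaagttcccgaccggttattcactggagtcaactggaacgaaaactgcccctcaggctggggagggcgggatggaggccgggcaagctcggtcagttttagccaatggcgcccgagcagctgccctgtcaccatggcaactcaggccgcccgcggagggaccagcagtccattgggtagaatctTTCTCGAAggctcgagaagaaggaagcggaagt
The Hspa1a window held 1 match, beginning at position -104 from the start site. The Hsph1 window shown held 1 match at -33, and the same match lay at -54 from another RefSeq start of the gene. The Hspa1l window held 0 matches, as did the Dnajb1 windows. The Dnajb1 window of the later start lies inside the gene, downstream of its earlier start. Hspa1a and Hspa1l are divergent neighbours with starts 547 bases apart. The Hspa1b window (chr17:34959239-34959488, minus strand) was identical to that of Hspa1a at 247 of 250 positions and held the same match at -104. A match describes these letters only, and binding was not measured.

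Hspa1a encodes the inducible cytosolic Hsp70. Its probe (A_55_P2068459) had log2 values of 0.60, 0.31 and 2.80 in old replicates 1, 2 and 3, against -1.03, -0.97 and -1.28 in young replicates 1, 2 and 3. Every old sample exceeded every young sample, and old replicate 3 lay well above the other old samples. In processed intensity the old samples read 469, 354 and 1889, against 147, 132 and 86.2 in the young samples. The old mean was 1.23 ± 1.37 and the young mean -1.09 ± 0.17 (SD, n = 3 each). The difference was 2.33 ± 0.62 (SE), with a 95% interval of 0.84 to 3.81, an unadjusted limma p of 0.00768 and an adjusted p of 0.196. Without old replicate 3 the difference was 1.54 (limma adjusted p = 0.131), and with slide row as a block it was 1.69 (limma adjusted p = 0.493). Over the 17 alternative settings it stayed positive, between 1.54 and 2.79, and its adjusted p lay between 0.103 and 0.493. Hspa1b encodes a nearly identical protein from an adjacent gene, so signal from both genes on this probe cannot be told apart here.

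**Figure D1:**
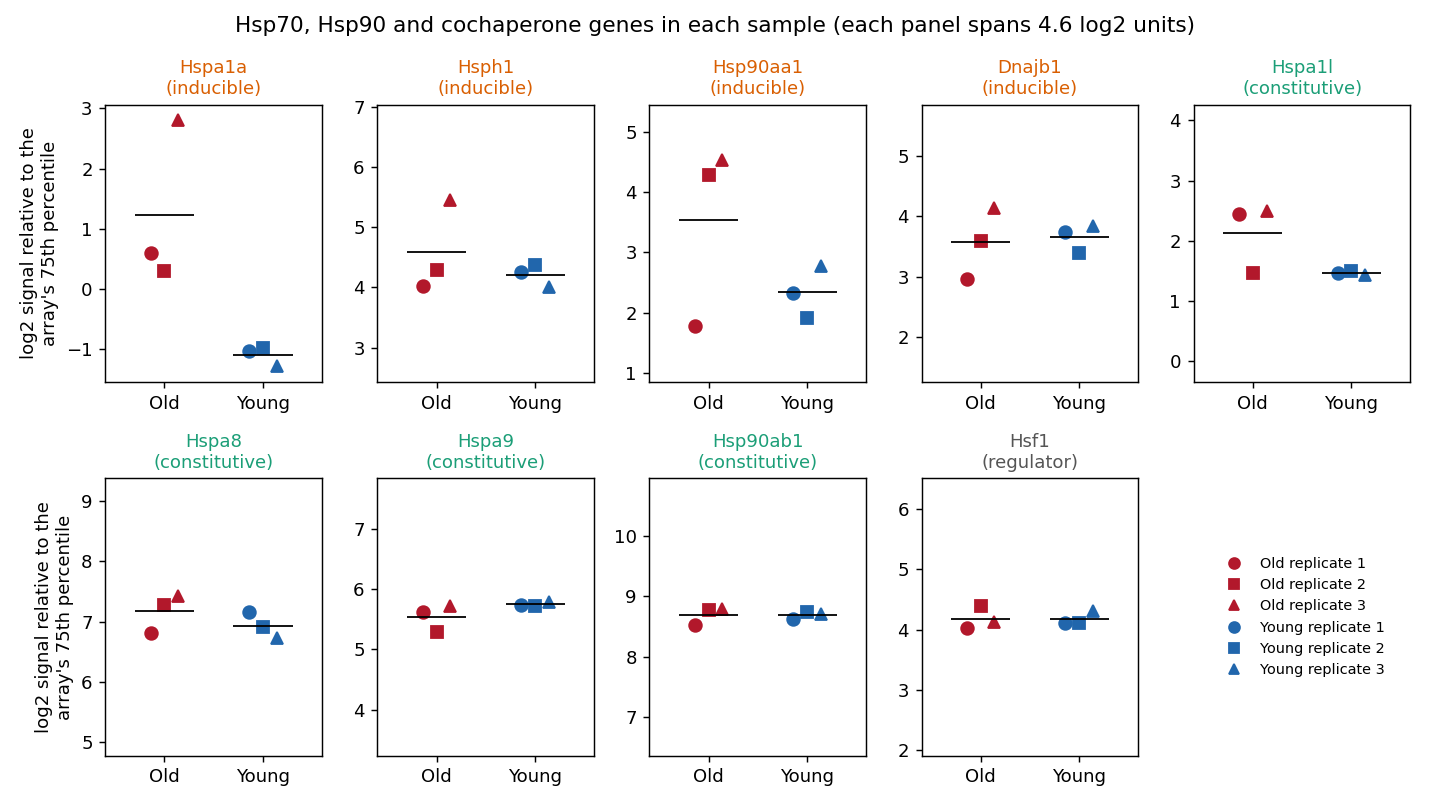
Log2 signal of each measured member relative to its array's 75th percentile, by age. Points are single samples, with symbols marking the replicate, and bars are group means; every panel spans the same number of log2 units. Hspa1a is the panel in which all 3 old samples lie above all 3 young samples.

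Hsp90aa1 encodes the inducible cytosolic Hsp90 (Hsp90 alpha), a partner of the myosin chaperone Unc45b in muscle. Its probe (A_55_P2057946) had log2 values of 1.77, 4.29 and 4.52 in old replicates 1, 2 and 3, against 2.33, 1.92 and 2.77 in young replicates 1, 2 and 3. Old replicate 1 was the lowest of all 6 samples and the other old samples were the highest, so the groups overlapped. Intensities were 1062, 5601 and 6228 in old muscle, against 1506, 975 and 1434 in young muscle. The old mean was 3.53 ± 1.52 and the young mean 2.34 ± 0.43 (SD, n = 3 each), a 2.28-fold difference. On the log2 scale the difference was 1.19 ± 0.71 (SE), with a 95% interval of -0.51 to 2.88 and a limma adjusted p of 0.482. The gene was not called with all 6 samples, and this turned on 1 sample. Without old replicate 1 the difference was 2.07 ± 0.28 (SE) with a limma adjusted p of 0.0432. That fit sets old samples of the second slide row against young samples of the first, so age and row cannot be told apart. Within the first slide row, where old replicate 1 is the only old sample, the difference was -0.57 (limma adjusted p = 0.560). With limma array weights it was 1.80 (adjusted p = 0.133).

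Hsph1, the inducible Hsp110 that recharges Hsp70 with ATP, had log2 values of 4.02, 4.29 and 5.45 in old samples, against 4.25, 4.37 and 4.01 in young samples. Only old replicate 3 stood above the young samples. The difference was 0.38 ± 0.37 (SE; 95% interval -0.51 to 1.26, limma adjusted p = 0.665). It was -0.06 without old replicate 3 and -0.19 with slide row as a block. Its other probe had the same order at the top, with 2.58, 2.71 and 4.24 in old samples, against 2.73, 2.79 and 2.07 in young samples, and a difference of 0.65 ± 0.47 (SE).

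Dnajb1, the heat-inducible J-domain protein that hands clients to Hsp70, had log2 values of 2.96, 3.60 and 4.15 in old samples, against 3.75, 3.40 and 3.85 in young samples. The young samples lay inside the old range. The difference was -0.10 ± 0.31 (SE; 95% interval -0.84 to 0.65, limma adjusted p = 0.902). It was 0.21 without old replicate 1, 0.14 with array weights and -0.70 with slide row as a block.

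Among the constitutive members, Hspa1l, an Hsp70 best known from spermatids, had log2 values of 2.44, 1.46 and 2.49 in old samples, against 1.47, 1.51 and 1.43 in young samples. Old replicates 1 and 3 stood above the young samples and old replicate 2 lay among them. The young SD of 0.04 was larger than that of only 2.37% of genes, while the old SD of 0.58 exceeded that of 86.0%. The difference was 0.66 ± 0.29 (SE; 95% interval -0.03 to 1.36, 1.58-fold, limma adjusted p = 0.367). Without old replicate 2 it was 0.999 (limma adjusted p = 0.171), and with slide row as a block it was 0.98. Its divergent neighbour Hspa1a was likewise lowest among old samples in old replicate 2, but there it still exceeded the young samples.

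Hspa8 (Hsc70) is the housekeeping cytosolic Hsp70, which also uncoats clathrin vesicles and serves chaperone-mediated autophagy. Its probe with the highest mean had log2 values of 6.81, 7.28 and 7.42 in old samples, against 7.15, 6.91 and 6.73 in young samples. The groups overlapped because old replicate 1 lay below 2 of the young samples. The difference was 0.24 ± 0.22 (SE; 95% interval -0.28 to 0.76, limma adjusted p = 0.642), and -0.12 with slide row as a block. Its other probes differed by 0.66 ± 0.38 and -0.01 ± 0.20 (SE), so the 3 probes of the gene did not give the same size. The probe with 0.66 read 5.28, 5.98 and 6.29 in old samples, against 5.72, 5.31 and 4.55 in young samples.

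Hspa9 (mortalin) is the mitochondrial Hsp70 that pulls proteins through the inner membrane. Log2 values were 5.62, 5.28 and 5.72 in old samples, against 5.74, 5.72 and 5.79 in young samples. Old replicates 1 and 2 lay below every young sample and old replicate 3 exceeded young replicate 2 by less than the rounding shown. The difference was -0.21 ± 0.17 (SE; 95% interval -0.62 to 0.21, limma adjusted p = 0.611) and was negative under all 17 alternative settings, between -0.35 and -0.08.

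Hsp90ab1, the constitutive cytosolic Hsp90 (Hsp90 beta), had log2 values of 8.52, 8.77 and 8.79 in old samples, against 8.63, 8.73 and 8.71 in young samples. The young samples lay inside the old range, and the difference was 0.0046 ± 0.16 (SE; 95% interval -0.37 to 0.38, limma adjusted p = 0.991). Hsf1 itself had 4.03, 4.39 and 4.12 in old samples, against 4.10, 4.11 and 4.31 in young samples. Its difference was 0.0045 ± 0.17 (SE; 95% interval -0.40 to 0.41, limma adjusted p = 0.992). The intervals of both genes still hold differences of about 0.4 in either direction, and Hsf1 is controlled largely by its protein state, which these arrays do not measure.

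**Figure D2:**
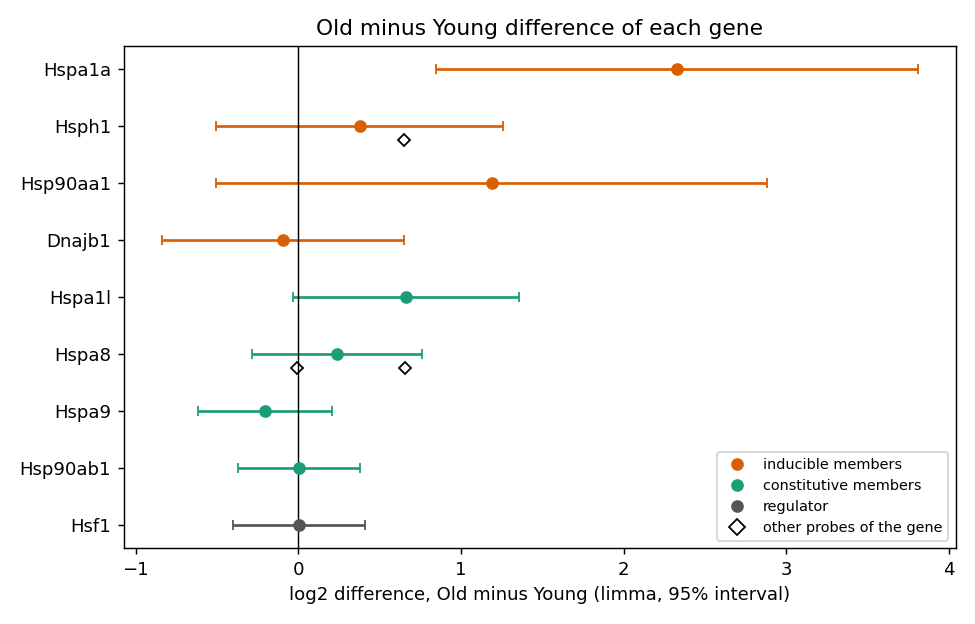
Old minus young log2 difference of each measured member, with limma's 95% interval, coloured by role; open diamonds are other probes of the same gene. The interval of Hspa1a, from 0.84 to 3.81, is the one that does not include 0.

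Set side by side, the inducible genes spread more among the old samples than the constitutive ones. Differences of the 4 measured inducible genes ran from -0.10 to 2.33 with a median of 0.78, and 3 of 4 were positive. Those of the 4 constitutive genes ran from -0.21 to 0.66 with a median of 0.12, and 3 of 4 were positive. With slide row as a block the inducible median was -0.38 and the constitutive median -0.13, and leaving out 1 sample gave 0.32 to 1.36 for the inducible median. Median centring gave a constitutive median of -0.026. Over all genes tested the median was -0.06 and 43.1% of differences were positive. With each gene centred on its mean over the 6 arrays, the inducible mean was -0.42, 0.36 and 1.48 in old samples, against -0.43, -0.58 and -0.42 in young samples. The constitutive mean was 0.05, -0.10 and 0.31 in old samples, against -0.05, -0.08 and -0.13 in young samples. By the constitutive mean old replicate 2 lay among the young samples and old replicates 1 and 3 above them. By the inducible mean old replicate 1 was level with the highest young sample (-0.416 against -0.417) and old replicates 2 and 3 lay above them all. Single genes departed from it: in old replicate 1 Hspa1a exceeded every young sample while Hsp90aa1 and Dnajb1 lay below every young sample, and old replicate 2 lay within the young range for Hsph1 and Dnajb1.

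The inducible mean minus the constitutive mean was -0.47, 0.46 and 1.17 in old samples, against -0.38, -0.50 and -0.28 in young samples. That is 0.39 ± 0.82 in old muscle and -0.39 ± 0.11 in young muscle (SD, n = 3 each), a difference of 0.77 that lies within the spread of the old samples. It has no p, since it is a score over chosen genes. Leaving out Hspa1a gave -0.78, 0.51 and 0.75 in old samples, against -0.16, -0.34 and 0.03 in young samples, a difference of 0.31. The difference of 0.77 was 0.39 without old replicate 3, 1.20 without old replicate 1 and -0.08 with slide row as a block.

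**Figure D3:**
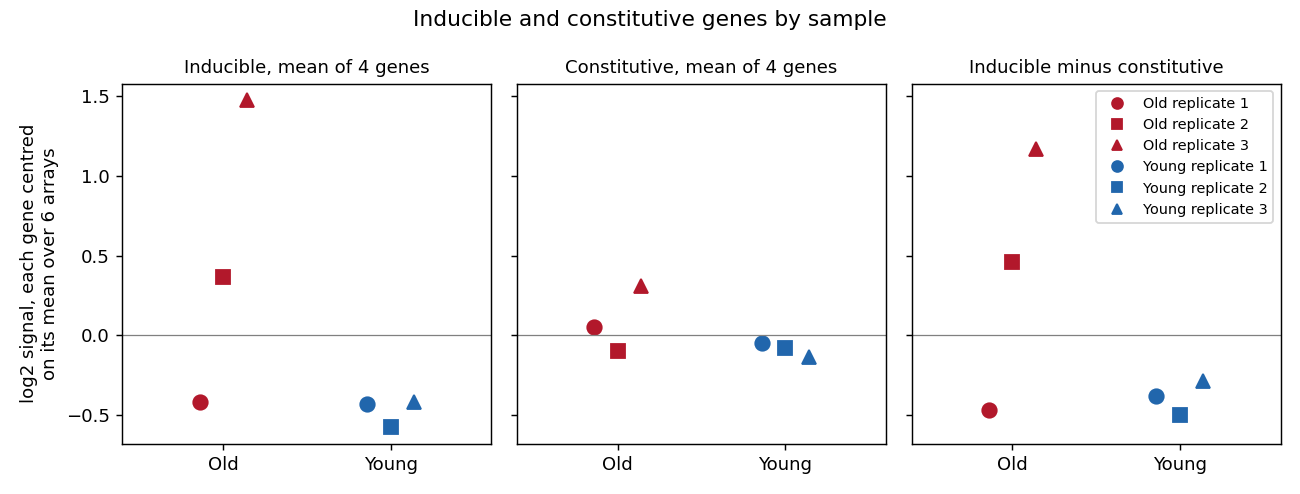
Mean of the 4 inducible genes, mean of the 4 constitutive genes and their difference in each sample, as log2 signal centred on each gene's mean over the 6 arrays. Old replicates 2 and 3 lie above the young samples in the inducible panel (0.36 and 1.48) and old replicate 1 is level with the highest young sample (-0.42).

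Old samples varied more than young ones for all 9 members, against 57.7% of all genes and 54 of 104 related chaperone genes (51.9%). The old SD of Hsp90aa1 exceeded that of 99.0% of genes and the old SD of Hspa1a that of 98.5%, whereas Hsf1 (32.1%) and Hsp90ab1 (23.3%) had smaller spreads than most genes. Old replicate 3 held the highest value for 7 of the 9 members, against 16.7% of all genes, and old replicate 1 the lowest value for 4, against 24.3%. Young replicate 3 was also lowest for 4 members, against 14.9% of all genes. These shares were counted after the values were seen.

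**Figure D4:**
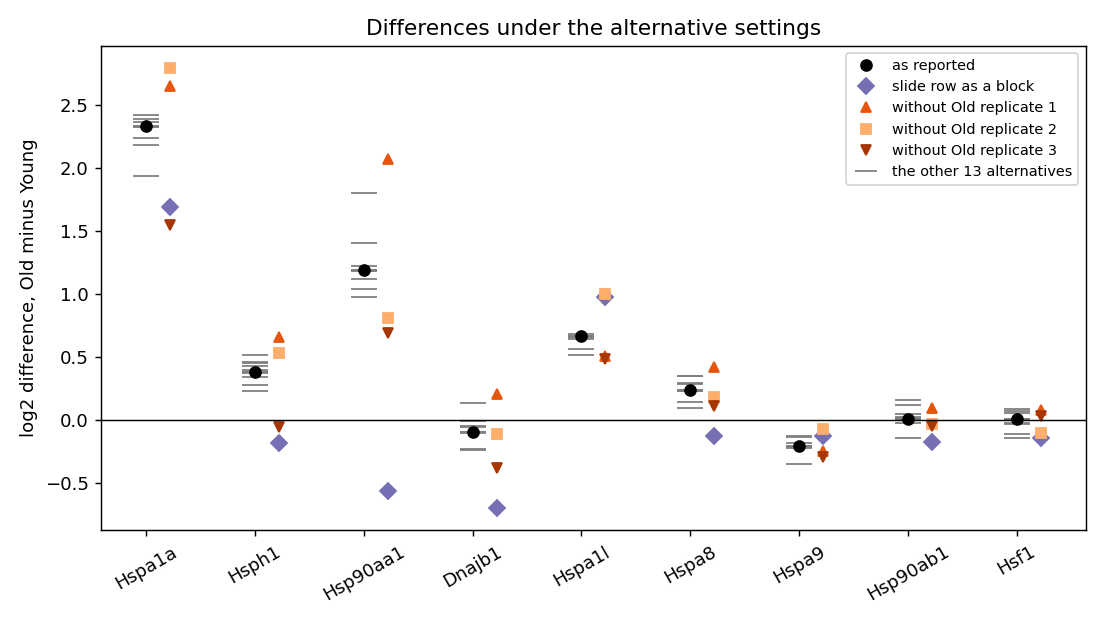
Old minus young log2 difference of each measured member as reported (black), with slide row as a block, without each old replicate, and under the other alternative settings (grey). Hspa1a stays above 0 in all of them, between 1.54 and 2.79, whereas Hsp90aa1 lies between -0.57 and 2.07.

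The other chaperone genes were read from lists of the same pathway. Together 104 of 111 listed genes other than the members were tested, and limma called 0 of them. At an unadjusted p under 0.05, 7 were higher and 2 lower in old muscle, which is 8.65%, against 14.4% of all genes. Old values lay wholly above young values for 8 genes and wholly below for 8, which is 7.69% each. Their median difference was 0.04 and 57 were positive. Old replicate 3 held the highest value for 45 of the 104 genes (43.3%), against 16.7% of all genes, and young replicate 3 for 27 (26.0%), against 30.2% of all genes.

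Small heat shock proteins, which hold unfolding proteins until Hsp70 acts, had a median difference of 0.42 over 7 genes, with 4 positive and 0 called. Hspb8, a partner of the Hsp70 cochaperone Bag3, had log2 values of 6.38, 6.77 and 8.32 in old samples, against 6.0, 5.28 and 5.19 in young samples. All old samples exceeded the young samples, and the difference was 1.67 ± 0.51 (SE, limma adjusted p = 0.237). Hspb7, a cardiac and skeletal muscle member, differed by 1.20 ± 0.44 (adjusted p = 0.298). Bag3 had 6.13, 5.98 and 6.81 in old samples, against 5.94, 6.02 and 5.86 in young samples, a difference of 0.36 ± 0.24 (SE).

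Hsp70 and Hsp90 genes of the endoplasmic reticulum and mitochondria had a median difference of 0.81 over 4 genes, with 3 positive and 0 called. Hspa5 (BiP), the Hsp70 of the endoplasmic reticulum, had 5.88, 6.34 and 6.75 in old samples, against 5.74, 5.42 and 5.67 in young samples. Old values all lay above the young values, and the difference was 0.72 ± 0.25 (SE, limma adjusted p = 0.285). Its exchange factor Hyou1 differed by 1.03 ± 0.34 and was well above background on 2 of the 3 young arrays. Hsp90b1 (Grp94) differed by 0.90 ± 0.40 and mitochondrial Trap1 by -0.15 ± 0.15. Of the other Hsp70 and Hsp110 genes, 3 of 6 were positive, with a median of 0.02.

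J-domain genes had a median difference of -0.05, with 17 of 36 positive and 0 called. Dnajb2, a J-domain protein that sorts Hsp70 clients for degradation, differed by 0.62 ± 0.24 (SE), and its old values all exceeded its young values. Dnajc14, Dnajc21 and Dnajc15 differed by -0.38 ± 0.15, -0.40 ± 0.17 and -0.36 ± 0.16, with old values below all young values in each. Among Hsp70 exchange factors and adaptors the median was -0.04, with 5 of 12 positive, and Grpel2, a mitochondrial exchange factor for Hspa9, differed by 0.84 ± 0.25 (limma adjusted p = 0.228).

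Hsp90 cochaperones had a median difference of 0.06, with 12 of 22 positive and 0 called. Fkbp8, an Hsp90-binding immunophilin, had 5.15, 5.06 and 4.98 in old samples, against 5.28, 5.43 and 5.52 in young samples. All old samples lay below the young ones, and the difference was -0.34 ± 0.15 (SE, limma adjusted p = 0.369). Stip1 (Hop), which bridges Hsp70 and Hsp90, differed by 0.75 ± 0.46, and Itgb1bp2 (melusin), a striated muscle Hsp90 cochaperone, by 1.07 ± 0.54. Chaperonin genes had a median of 0.27, with 8 of 10 positive and 0 called. The negative ones were the mitochondrial Hspd1 (-0.022) and Hspe1 (-0.12), while the 8 cytosolic genes were all positive with a median of 0.32. Old replicate 3 was highest for 8 of the 10 and for 7 of the 8 cytosolic genes. The other heat shock factors and their binding protein had a median of 0.28, with 4 of 4 positive and 0 called, and Hsf3 and Hsf5 were not well above background on any array.

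Other heat-inducible targets of Hsf1 had a median difference of 0.12, with 9 of 17 positive and 0 called, and old replicate 3 was highest for 12 of the 17. Of these 17 genes, 14 also belong to another list above.

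**Figure D5:**
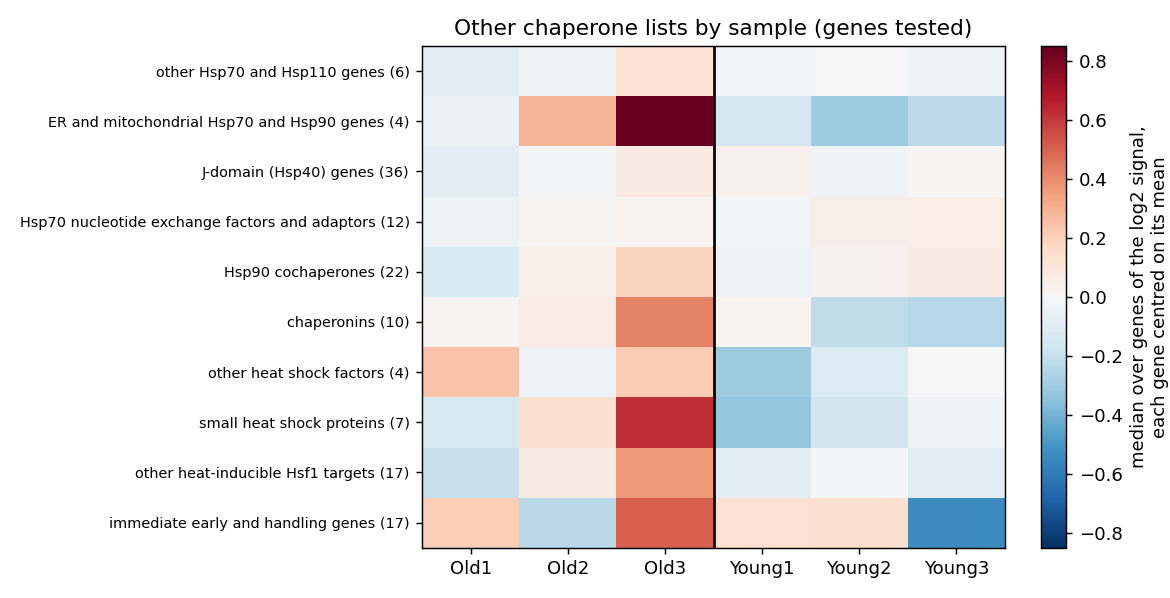
Median over the tested genes of each list, per sample, of the log2 signal centred on each gene's mean over the 6 arrays (red above the mean, blue below). Old samples are on the left and young samples on the right; old replicate 3 has the highest median among old samples in most chaperone lists.

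Immediate early genes respond within minutes to stress and to the handling of tissue. Of 17 such genes tested, 0 were called, and at an unadjusted p under 0.05 limma had 4 higher and 4 lower in old muscle. Atf3, a stress-activated transcription factor, had 1.56, 1.56 and 4.26 in old samples, against 0.38, -0.71 and -1.16 in young samples. Old replicate 3 was highest for this gene as it was for Hspa1a, and the difference was 2.96 ± 0.79 (SE, limma adjusted p = 0.195). Myc differed by 1.62 ± 0.43 and Junb by 1.48 ± 0.44, whereas Nr4a1, an exercise-responsive nuclear receptor, differed by -1.23 ± 0.35. The summed linear signal of the list, in units of the array's 75th percentile, was 199 to 253 in old samples, against 304 to 388 in young samples. Nr4a1 alone carried that gap, since the sum of the other genes was 116 to 170 in old samples, against 106 to 177 in young samples. The part of tissue handling in the chaperone values was not tested.

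Markers of the cell types in muscle were read beside the chaperones. All 12 muscle fibre markers were tested, with a median difference of -0.18, 0 called, and a summed signal of 6303 to 8261 in old samples, against 8212 to 9807 in young samples; the sum for old replicate 3 lacks Tnni2, whose spots carried an outlier flag. Of 10 macrophage markers 9 were positive and 0 were called, with a median of 0.76 and a sum of 35.0 to 42.5 in old samples, against 28.1 to 30.4 in young samples. Among 4 neutrophil markers S100a8 and S100a9 rose in old muscle, by 27.9-fold and 25.9-fold (limma adjusted p = 0.00604 for each; 2 called; median of the list 4.07; sum 168 to 198 in old samples, against 156 to 160 in young samples). Csf3r held most of that sum, and the other 3 neutrophil markers summed to 16.2 to 24.4 in old samples, against 0.493 to 1.01 in young samples. Of 7 Schwann cell markers 5 had old values wholly below the young values and 1 had them wholly above. Differences were positive for 2 of the 7. The median of the list was -0.74, with a sum of 24.4 to 41.4 in old samples, against 24.3 to 44.2 in young samples. Prx, a myelin protein, fell by 1.29 on the log2 scale (limma adjusted p = 0.0429). All 4 erythroid markers tested were negative and 0 were called (3 at an unadjusted p under 0.05), with a sum of 79.8 to 153 in old samples, against 194 to 326 in young samples. Endothelial markers (8 tested, 3 positive, 0 called, median -0.23) summed to 57.0 to 74.6 in old samples, against 77.2 to 112 in young samples. Egfl7 held most of that sum. Without Egfl7 the sums overlapped, at 14.3 to 19.5 in old samples and 19.1 to 24.2 in young samples. Fibroblast markers (8 tested, 1 positive, 0 called) summed to 224 to 357 in old samples, against 465 to 531 in young samples. Cd163 and Ngp were not well above background on any array. The part of cell composition in the chaperone values was not tested, and in whole muscle fewer cells of a type and less RNA per cell cannot be told apart.

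The genes most like 3 of the members over the 6 arrays were listed by Pearson r among 13159 named genes, as a description with no test. Closest to Hspa1a were the calcium channel Trpv2 (0.996), Myc (0.994), the nucleolar protein Fbl (0.993) and the lysosomal protease Lgmn (0.993). Trpv2 had 0.20, -0.11 and 1.19 in old samples, against -0.67, -0.63 and -0.68 in young samples, the same order among old samples as Hspa1a. Closest to Hsp90aa1 were Riiad1 (0.993), the thick filament protein Mybph (0.992), the splicing factor Sfpq (0.990) and the protease Bace1 (0.988). Mybph had 5.04, 6.65 and 7.03 in old samples, against 5.15, 4.97 and 5.58 in young samples. Closest to Hspa8 were Myorg (0.999), the ferritin light chain Ftl1 (0.988), Ddx19a (0.986) and the phosphate transporter Slc20a1 (0.986). Each r rests on 6 arrays, which the compared genes share, and old replicate 3 holds the extreme value of Hspa1a and of all 4 genes closest to it.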

How the data were processed

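RNA of 3 old and 3 young gastrocnemius samples was hybridised to one-colour arrays. The deposited scanner files hold processed (background-subtracted) intensity per spot, from Agilent Feature Extraction 11.0.1.1 per the file headers (9.5 per the submitters' processing notes). The authors' deposited value table matched the same intensity divided by each array's 75th percentile, scaled and rounded, with all 62976 values within 0.5.

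Here, control and outlier-flagged spots were left out, spots of a probe averaged, and log2 intensity centred on each array's 75th percentile. Probes well above background on at least 3 arrays were kept (28013 probes), and the kept probe with the highest mean stood for its gene. Array accessions gave a RefSeq symbol to 28331 of 55681 probes. Ages were compared with limma 3.58.1 (R 4.3.3; lmFit and eBayes, two-sided, Benjamini-Hochberg adjustment over 20907 genes); the analysis code was tested on simulated data. With 3 samples an age, an exact permutation test cannot go below p = 0.1, so none is given. Members and lists were chosen with earlier results of these data known. All members are named, and in each list the 4 genes of lowest p, or those called, were eligible to be named. In the normexp alternative (offset 50) the median signal was used. There were 17 alternatives. Precision is limited by the number of arrays. 1 gene of a list is not reported here.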

Additional observations from a re-analysis of the deposited data

How the results depend on the processing

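No member passed the threshold under 16 of the 17 alternatives. Without old replicate 1, where age and slide row cannot be told apart, 1 did (Hsp90aa1, limma adjusted p = 0.0432). Both the count of members called and the count of member probes called therefore ran from 0 to 1 over the fits that leave out 1 sample. Hspa1a and Hspa1l kept a positive difference and Hspa9 a negative one under all 17. Over all genes, 53 were called; array weights gave 194, no filter on dim probes 8, the filter on all arrays 35, and leaving out 1 sample 1 to 186. Deviations of same-numbered samples from their group means correlated at -0.06, -0.27 and 0.03, and those of unlike-numbered samples at -0.21 to 0.35. With only 3 samples an age, each centred on its group mean, these values cannot show whether the replicate numbers pair the samples. With the replicate block 5 genes and 0 members were called. Reversed signs were as follows. Slide row as a block gave -0.19 for Hsph1, -0.57 for Hsp90aa1, -0.12 for Hspa8, -0.17 for Hsp90ab1, -0.15 for Hsf1, -0.38 for the inducible median, -0.13 for the constitutive median and -0.079 for the inducible minus constitutive difference; by construction it compares old replicate 1 alone with the young samples. Array weights gave 0.14 for Dnajb1. Median centring, which moves the median of all genes to -0.21 from -0.06, gave -0.14 for both Hsp90ab1 and Hsf1 and -0.026 for the constitutive median. The authors' values gave -0.0031 for Hsp90ab1 and -0.0034 for Hsf1, and normexp correction gave -0.11 for Hsf1. Leaving out 1 sample gave -0.38 to 0.21 for Dnajb1, -0.055 to 0.66 for Hsph1, -0.045 to 0.093 for Hsp90ab1, -0.10 to 0.080 for Hsf1 and 0.39 to 1.20 for inducible minus constitutive. The cause of the other changes was not tested. Only 3 samples an age limit every value, and whether the Hspa1a probe also reads Hspa1b was not tested.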

Other observations

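Young replicate 3 held low values for several chaperonin and cochaperone probes, a pattern singled out after the values were seen. Of the 104 related chaperone genes tested, old replicate 1 was lowest for 28 and young replicate 3 for 24. Young replicate 3 was also highest for 27 of them. Its array was the dimmest, with a 75th percentile intensity of 210 against 259 to 311 on the other arrays. Its limma array weight was 0.53, with 0.45 for old replicate 1 and 1.16 to 2.04 for the rest. The part of the array in these low values was not tested. Cct3, a subunit of the cytosolic chaperonin, had log2 values of 3.29, 3.48 and 4.06 in old samples, against 3.06, 2.52 and 0.01 in young samples. Cct6a had 2.73, 2.92 and 4.02 in old samples, against 2.89, 1.86 and 0.69 in young samples. Itgb1bp2 had 4.81, 4.8 and 5.46 in old samples, against 4.90, 4.23 and 2.72 in young samples, and Stip1 had 3.55, 3.88 and 4.32 in old samples, against 3.72, 3.67 and 2.10 in young samples. Their limma adjusted p-values were 0.356 for Cct3, 0.346 for Cct6a, 0.418 for Itgb1bp2 and 0.492 for Stip1. Among the 9 measured members of the Hsp70 and Hsp90 set, young replicate 3 was the lowest sample for 4: Hspa1a, Hsph1, Hspa1l and Hspa8.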
